A study of Mus musculus with 2 samples.

Results

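The regions described here are DNase I hypersensitive peaks at CpG-rich promoters that serve a single gene. A peak was included if it came from the shorter of the 2 deposited peak lists of its library and overlapped such a peak of the other library. Its centre had to lie within 1 kb of a start site of exactly 1 protein-coding gene, on an autosome. The 1 kb around that start site had to hold at least 50% G and C and at least 0.6 times the CpG dinucleotides expected from its base composition, which is called observed/expected CpG. By this rule 11660 of 49224 autosomal peaks of replicate 1 and 11691 of 48581 of replicate 2 were members. The peaks themselves had a median observed/expected CpG of 0.841 in replicate 1 and 0.834 in replicate 2, against 0.539 and 0.538 in CpG-poor one-gene peaks. Members belonged to 7045 and 7043 genes, and 7026 genes had a member in both libraries.

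Chromatin accessibility was mapped by DNase-seq, in which the enzyme DNase I cuts exposed DNA, in thymus of female B6CASTF1/J mice, hybrids of the B6 and CAST strains, at 18 to 20 months of age. The 1 group held 2 libraries, labelled replicates 1 and 2, and no other age, tissue, sex or treatment was compared. The labels give both libraries the same donor record and a biosample record each. Whether 2 animals were sampled is not stated, and the spread between the libraries may be technical only. With 2 libraries of 1 group no test could be run, since an exact permutation test over 2 libraries cannot pass 0.05, and all differences below are values with their spread over the libraries. Read depth is unknown.

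CpG dinucleotides are rare in most of the mouse genome because methylated cytosine is lost by deamination, and stretches that stay unmethylated keep them as CpG islands. Many promoters lie in such islands, above all those of genes used in every cell, but also those of regulators of development, which Polycomb complexes can keep silent. Transcription factors whose sites hold a CpG, such as NRF1, SP/KLF zinc finger proteins, ETS proteins, CREB/ATF proteins, YY1 and BANP, bind there.

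The bases of 7 members are printed because each held a motif of a factor that binds promoters under a footprint, a short run of bases protected from DNase I, in both libraries. They were the members with the highest mean signal among peaks of at most 300 bp with that motif. The sequences are the GRCm38 reference (C57BL/6J), read 5′ to 3′ on the strand of the gene, and the CAST allele can differ from them. Only bases outside annotated exons are shown, or the site alone where the motif lay in an exon. Capitals mark only the motif or motifs for which a member was picked. Copies of other searched motifs stay in lower case, such as an SP/KLF copy in Mapk14 and a match to the CTCF motif in Jarid2. The stretch of Snrnp70 (chr7:45395743-45395920, minus strand) holds copies of the NRF1 motif in 2 runs of capitals, the farthest 120 bp upstream of the start site. Eif5a (chr11:69921387-69921560, minus strand) holds an SP/KLF motif beside an E-box. Senp2 (chr16:22009261-22009483, plus strand) holds a CRE, the site of CREB/ATF proteins, 71 bp upstream. Mapk14 (chr17:28691181-28691328, plus strand) holds the palindrome bound by BANP 56 bp upstream. Jarid2 (chr13:44730581-44730773, plus strand) holds a ZNF143 motif 39 bp upstream. Ip6k1 (chr9:108002626-108002654, plus strand) is shown by its YY1 site alone, which lies downstream of the start site in a UTR, and Zbtb5 (chr4:45012456-45012484, minus strand) by an NF-Y site 58 bp upstream.
Snrnp70: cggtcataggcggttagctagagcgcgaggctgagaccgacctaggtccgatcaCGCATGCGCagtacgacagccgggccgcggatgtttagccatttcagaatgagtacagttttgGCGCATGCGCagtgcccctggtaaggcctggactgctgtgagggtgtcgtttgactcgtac
Eif5a: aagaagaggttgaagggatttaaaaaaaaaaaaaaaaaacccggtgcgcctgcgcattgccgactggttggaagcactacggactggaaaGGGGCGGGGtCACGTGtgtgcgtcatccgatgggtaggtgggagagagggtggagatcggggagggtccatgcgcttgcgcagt
Senp2: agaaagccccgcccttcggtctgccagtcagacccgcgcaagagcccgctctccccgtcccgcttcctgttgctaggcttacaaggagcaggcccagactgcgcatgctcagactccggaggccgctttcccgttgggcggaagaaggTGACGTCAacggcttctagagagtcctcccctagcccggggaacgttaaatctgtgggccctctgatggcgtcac
Mapk14: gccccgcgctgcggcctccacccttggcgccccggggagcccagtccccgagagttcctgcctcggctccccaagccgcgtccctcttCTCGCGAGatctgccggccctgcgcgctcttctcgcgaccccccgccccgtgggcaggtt
Jarid2: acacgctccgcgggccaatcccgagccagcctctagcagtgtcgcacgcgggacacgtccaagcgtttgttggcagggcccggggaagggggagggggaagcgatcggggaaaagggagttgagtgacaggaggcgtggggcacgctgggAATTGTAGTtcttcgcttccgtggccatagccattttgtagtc
Ip6k1: ctcggctggcCGCCATCTTgttgttgatc
Zbtb5: cgccctcctgaTGATTGGccattggaggc

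The printed stretch of Snrnp70 held 16 CpG in 178 bases, that of Senp2 17 in 223, and that of Mapk14 18 in 148. These 3 peaks had signals, in the units of the deposited lists, of 25.6, 21.5 and 21.2 in replicate 1, and of 27.3, 26.8 and 22.9 in replicate 2. Snrnp70 encodes a protein of the U1 small nuclear ribonucleoprotein, Senp2 a protease that removes SUMO from proteins, and Mapk14 the p38α stress kinase.

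The members were strong peaks. Their median signal was 3.78 in replicate 1 and 3.18 in replicate 2, against 2.42 and 2.28 for shared peaks at CpG-poor promoters of 1 gene, those that miss the CpG or the GC threshold. The ratio of the medians was 1.56 in replicate 1 and 1.40 in replicate 2 (mean 1.48 ± 0.118, SD, n = 2 libraries). Against shared peaks over 1 kb from any start site, whose medians were 1.69 and 1.38, the ratio was 2.27 ± 0.0532. Shared peaks within 1 kb of start sites of 2 or more genes were stronger than the members, with medians of 5.82 and 5.28, so that the ratio of members to these was 0.626 ± 0.0334. All 3 differences had the same direction in both libraries. The scale of the signal is not stated, and the 2 libraries may be scaled differently, so ratios were taken within each library. With thresholds of 0.75 for observed/expected CpG and 55% for GC the ratio to CpG-poor peaks was 1.08.

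**Figure D1:**
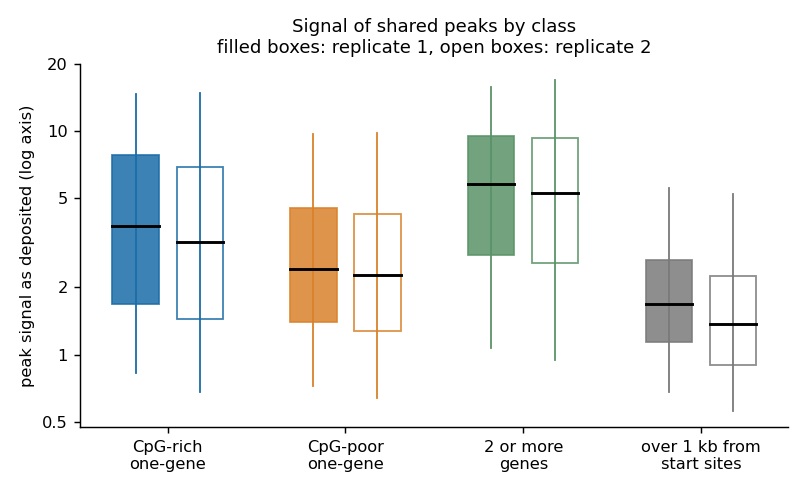
Peak signal as deposited (log axis) of shared main-list peaks in 4 classes, with boxes for the middle 50% of peaks, whiskers from the 5th to the 95th percentile and a black line for the median, filled for replicate 1 and open for replicate 2. The CpG-rich one-gene peaks, with medians of 3.78 and 3.18, lie above CpG-poor one-gene peaks (2.42 and 2.28) and distant peaks (1.69 and 1.38) and below peaks near 2 or more genes (5.82 and 5.28).

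The 10 strongest members paired 1 to 1, where each peak overlapped a single peak of the other library, had signals of 23.7 to 38.7. Dnpep, which encodes an aspartyl aminopeptidase, had signals of 30.5 in replicate 1 and 37.2 in replicate 2, and Hjurp, the chaperone that deposits the centromeric histone CENP-A, had 38.7 and 28.6. The translation factor genes Eif5a and Eif1 had 30.9 and 28.0, and 27.7 and 24.4. Esrra, an orphan nuclear receptor gene of energy metabolism, had 27.8 and 30.5, and Fzr1, which encodes an activator of the anaphase-promoting complex, had a mean of 29.1 ± 1.23 (SD, n = 2). The remaining members among the 10 strongest were at Myo10, a myosin of filopodia, at Ing2, a chromatin reader, at Papss1, which makes the sulfate donor of the cell, and at Snrnp70, with signals of 23.7 to 30.5. All 10 had their centre upstream of the start site by 18 to 165 bp, except the replicate 2 peak of Hjurp, which was centred 2 bp downstream. The weakest paired members, with signals of 0.176 to 0.376, lay at the predicted genes Gm3739 (2 peaks) and Gm10406, at Klhl32 and at Ctnna2, a catenin gene of neurons. Copies of a gene family can share reads, and how such reads were placed is not known here.

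Member centres clustered just in front of the start site, with a flat shoulder behind it. The median centre lay 13 bp upstream in replicate 1 and 14 bp upstream in replicate 2. Between 150 bp upstream and 50 bp downstream, called the core here, lay 48.4% and 47.3% of members, against 52.6% and 52.5% of CpG-poor peaks. A second, flat group of members was centred 200 to 700 bp downstream and held 21.1% and 21.4%, against 16.3% and 15.9% of CpG-poor peaks. These zones were drawn after the distribution was seen. In the core the median signal of members was 6.47 and 5.64, against 3.27 and 3.04 for CpG-poor peaks. In the downstream zone it was 1.78 and 1.57, against 1.93 and 1.78. Farther upstream, from 150 bp to 1 kb, it was 3.06 and 2.70, against 1.86 and 1.74, and 50 to 200 bp downstream 2.69 and 2.26, against 2.01 and 1.94. By zone, the median of members was thus the higher one up to 200 bp downstream of the start site and the lower one beyond, in both libraries. Single 50-bp bins did not all follow. From 950 to 900 bp upstream members had 1.46 and 1.09, against 2.17 and 1.47, and from 300 to 350 bp downstream 1.88 and 1.64, against 1.84 and 1.28. Centres were also placed against the protein-coding transcripts of their own gene, leaving other genes aside. Of member centres 47.2% and 46.9% lay outside these transcripts, 25.4% and 25.5% in an intron and 6.56% and 6.57% in coding sequence, with the rest in a UTR. Of CpG-poor centres, 39.1% lay outside the transcripts of their gene in each library.

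**Figure D2:**
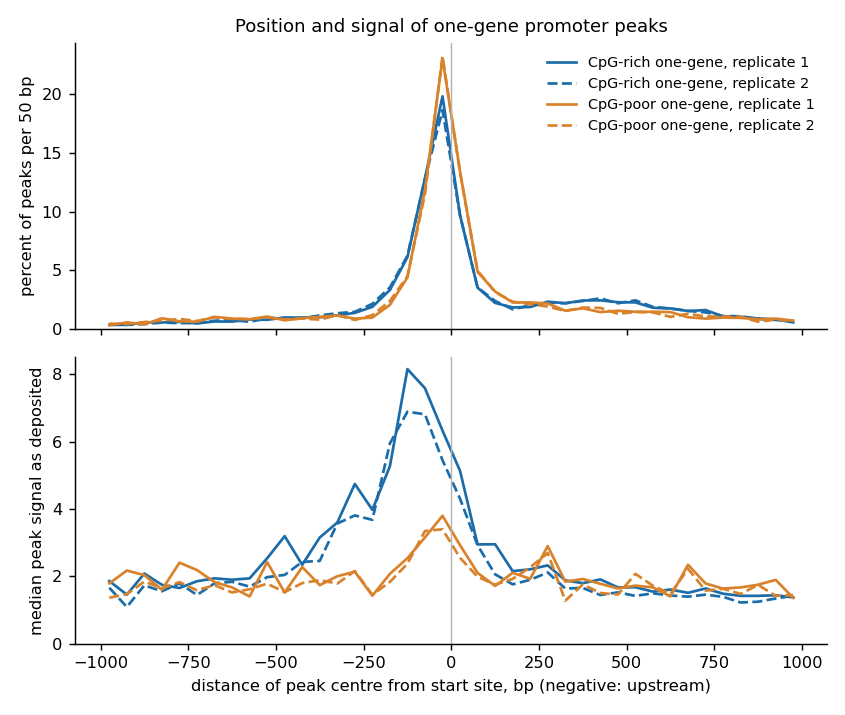
Percent of peaks per 50 bp (upper panel) and median peak signal as deposited (lower panel) by distance of the peak centre from the start site in bp, negative upstream, for CpG-rich and CpG-poor one-gene promoter peaks in replicates 1 (solid) and 2 (dashed). The CpG-rich curve exceeds the CpG-poor curve in signal throughout the core, with core medians of 6.47 and 5.64 against 3.27 and 3.04. From 200 to 700 bp downstream the CpG-rich median is the lower one, 1.78 and 1.57 against 1.93 and 1.78. Single bins there and far upstream lie on either side.

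Footprints followed the same split. They covered 33.2% and 33.5% of member bases in the core, against 25.4% and 26.8% of the bases of CpG-poor core peaks. In the downstream zone they covered 9.78% and 11.1% of member bases, against 16.1% and 17.0% in CpG-poor peaks. Over all members the covered share was 23.7% ± 0.525 (SD, n = 2), against 21.9% ± 0.740 in CpG-poor peaks. At least 1 footprint was found in 86.5% and 88.8% of members, against 92.8% and 94.4% of CpG-poor peaks and 94.7% and 96.3% of distant peaks, so a larger share of members had none. Signal moves with these shares, and its part in them was not tested. A member held at most 23 footprints in replicate 1 and 32 in replicate 2. The paired members with the most on average over the libraries, with 11 to 17 in a library, lay at Trib1, a pseudokinase gene, Ppm1l, a phosphatase gene, Usp15, a deubiquitinase gene, Kpnb1, which encodes importin β1, and Arhgap31, a gene of a GTPase-activating protein.

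Many genes had several members. In replicate 1, 52.9% of member genes had 1 peak and 33.2% had 2, and in replicate 2 the shares were 52.8% and 33.1%. Among genes with CpG-poor peaks, 73.7% and 73.6% had 1 peak. Where a gene had 2 members, their centres lay a median of 540 bp apart in replicate 1 and 544 bp in replicate 2. Of the genes with 2 or more members, 64.3% and 61.9% had the strongest one in the core. The widest members spanned 1520 bp in replicate 1 and 1640 bp in replicate 2. Among the 5 widest by mean width that were paired 1 to 1 were those at Irs2, an insulin receptor substrate gene, with 780 and 720 bp, at St8sia1, a ganglioside sialyltransferase gene, with 532 and 960 bp, at Gspt1, a translation termination gene, with 660 and 780 bp, and at Pafah1b1, which encodes the dynein regulator LIS1, with 700 bp in both. Widths had a median of 240 bp in replicate 1 and 260 bp in replicate 2, against 220 and 239 bp for CpG-poor peaks. The signals of these 4 wide members were low to moderate, between 1.23 and 4.04.

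The libraries ranked the members alike. Across 10150 members paired 1 to 1, Spearman's rho of the signals was 0.978, a description across peaks and not across replicates. The median log2 ratio of replicate 2 over replicate 1 was -0.18 with an SD of 0.31 across members. After this median was subtracted, 0.227% of pairs differed by more than 2-fold, against 0.823% of 3159 CpG-poor pairs and 3.51% of 21489 distant pairs, whose signals were lower. Nefh, a neurofilament gene, had the largest difference toward replicate 2, with signals of 0.546 in replicate 1 and 1.18 in replicate 2. Traf7, which encodes a ubiquitin ligase, had 5.66 and 10.9, and its peak spanned 400 bp in replicate 2 and 60 bp in replicate 1. Toward replicate 1, Cgnl1, a gene of epithelial junctions, had 2.00 and 0.737, Itga9, an integrin gene, had 2.25 and 0.848, and Mgat5b, a glycosyltransferase gene, had 3.35 and 1.28. These genes were picked by the size of the difference. Pak1, Srp54c and Slc7a1 completed the 5 toward replicate 2, whose peaks were all narrower in replicate 1 (60 to 104 bp) than in replicate 2 (176 to 560 bp), and Syndig1l and Tmc7 those toward replicate 1.

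Sharing between libraries depended on signal. Of the CpG-rich one-gene peaks before the overlap was required, 87.8% of 13273 in replicate 1 and 89.8% of 13019 in replicate 2 were shared. In the weakest signal quartile the shares were 60.6% and 70.5%, and in the strongest 99.8% and 99.9%. Of the peaks that were not shared, 41.8% and 32.7% overlapped a peak in the longer list of the other library.

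Members at promoters of higher GC content had lower signals. In 5 groups of nearly equal size by GC, the members with 50% to 57.6% GC had a median signal of 5.11 in replicate 1 and 4.61 in replicate 2, and those with 69.2% to 82.2% GC had 2.36 and 1.98. Spearman's rho of signal with GC was -0.182 and -0.208 across 11660 and 11691 members, which share genes and libraries. Within the core it was -0.0668 and -0.107. By observed/expected CpG, in 5 groups made the same way, the medians were 3.79 and 3.34 in the lowest, 4.29 and 3.57 in the next and 3.07 and 2.50 in the highest. The position of the peaks moves with these values, and its part was not tested.

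Single peaks next to a threshold varied widely in signal. Members just inside observed/expected CpG of 0.6 were at Mbp, a myelin gene, at Hax1, a gene of cell survival, and at Vps53, a gene of vesicle tethering, with mean signals of 5.14, 5.80 and 0.597. Peaks just outside were at Mthfd1, a gene of folate metabolism, at Nlrx1, a mitochondrial NOD-like receptor gene, and at Trim2, a ubiquitin ligase gene, with 9.27, 4.10 and 0.853. At 50% GC, the peaks inside were at Emc4, Ndufaf1 and Mtln, with 4.04, 3.12 and 3.50, and those outside, at 49.9% GC, were at Rab29, Uhmk1 and Alg9, with 5.08, 1.11 and 3.35. At the distance limit, the peaks 999 bp from a start site were at Nufip2, Zcchc24 and Ppp2r1a, with 1.98, 1.18 and 0.590, and those 1001 to 1003 bp away were at Hnrnpr, Zfp521 and Rprd2, with 1.26, 0.463 and 5.93. Members with observed/expected CpG of 0.60 to 0.65 had a median signal of 3.59 in replicate 1 and 3.15 in replicate 2, and shared peaks with 0.55 to 0.60 and enough GC had 3.13 and 2.70.

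Motifs were searched in the central 200 bp of each peak on both strands, with N for any base. Shared peaks of the 2 libraries overlap by rule, and both were read from 1 reference sequence. Motif shares of the libraries are thus largely counts of the same loci. Their SD reflects shifts of the peak centres and unequal peak lists, and is no measure of biological spread. With replicate 2 alone and no overlap required the ETS share was 5.14%, and with replicate 1 alone 5.04%, against 5.62% of members. The most common was the SP/KLF motif GGGGCGGGG, held by 18.8% of members in replicate 1 and 17.7% in replicate 2, against 11.5% and 10.8% of CpG-poor peaks and 3.43% and 3.27% of distant peaks. In windows of the same length at all 39540 start sites its share was 12.3%. ETS proteins are a large family with members in most cells, thymocytes included, and the ETS motif CCGGAAGT was held by 5.62% ± 0.0137 of members, against 4.02% ± 0.137 of CpG-poor peaks and 4.25% of all start sites (SD, n = 2 libraries). NRF1 controls many genes of mitochondria, and its motif GCGCATGCG was held by 2.82% ± 0.0356 of members, against 1.49% ± 0.121 of CpG-poor peaks and 1.72% of all start sites. The CRE TGACGTCA was held by 2.72% ± 0.00702 of members, against 1.99% ± 0.0450 of CpG-poor peaks and 1.87% of all start sites, and the YY1 motif AAGATGGCG by 2.03% ± 0.137, against 1.48% ± 0.0647 and 1.86%. BANP binds the palindrome CTCGCGAG when it is unmethylated. It was held by 181 and 180 members, or 1.55% ± 0.00896, against 10 and 11 CpG-poor peaks, or 0.307% ± 0.0212, and 0.883% of all start sites. The CTCF motif CAGGNGGCG was held by 6.86% ± 0.128 of members, against 5.19% ± 0.218 of CpG-poor peaks and 3.87% of all start sites, and the E-box CACGTG of MYC and USF proteins by 7.79% ± 0.137, against 6.85% ± 0.281 and 5.29%.

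Motifs with and without a CpG in their letters went apart. All 8 motifs that contain a CpG, the ones named so far, were held by a larger share of members than of CpG-poor peaks in both libraries. Against peaks near 2 or more genes the picture was another one. The share of members was 0.481 to 0.806 times theirs for NRF1, ETS, CRE, YY1, BANP, NF-Y and ZNF143, and 1.03 to 1.19 times for SP/KLF, CTCF and CACGTG, with the same direction in both libraries. Of the 7 without a CpG, 6 were held by a smaller share of members in both libraries. The windows held 66.8% and 66.4% GC in members, against 59.4% in CpG-poor peaks of either library, and the part of base composition in these shares was not tested. The exception was the NF-Y motif CCAATCA, held by 6.68% ± 0.0541 of members, against 6.73% ± 0.157 of CpG-poor peaks and 5.80% of all start sites. The ZNF143 motif ACTACAATT was held by 33 and 41 members, 0.317% ± 0.0479, against 27 and 23 CpG-poor peaks, 0.730% ± 0.0813, and 0.319% of all start sites. The motifs of RUNX, E proteins and TCF/LEF, factors that act in T cells, were among the 6 less frequent in members than in CpG-poor peaks. The ETS motif was not. RUNX, TGTGGT, was held by 6.37% of members in both libraries, against 12.9% of CpG-poor peaks in both, 21.8% ± 0.0561 of distant peaks and 9.85% of all start sites. The E-box of E proteins, CAGCTG, was held by 10.1% ± 0.296 of members, against 16.5% ± 0.155 of CpG-poor peaks and 12% of all start sites, and the TCF/LEF motif TTCAAAG by 1.38% ± 0.00865, against 2.95% ± 0.0358 and 2.31%. The AP-1 motif TGANTCA was held by 2.20% ± 0.0140, against 4.08% ± 0.137 and 4.04%, and TATAAA by 1.80% ± 0.00338, against 3.02% ± 0.0676 and 7.35%. Against peaks near 2 or more genes these motifs differed less. The share of members was 0.885 times theirs for RUNX, 0.978 for AP-1, 0.702 for TATAAA and 1.08 for CAGCTG. For TCF/LEF it was 1.00 times in replicate 1 and 0.826 times in replicate 2. None of the 15 motifs contains another whole. A sense TATAAA centred 20 to 40 bp upstream of the start site was found at 41 of 6960 CpG-rich genes with a member in both libraries (0.589%, exact 95% interval 0.423% to 0.798%), against 23 of 2114 open CpG-poor genes (1.09%, 0.691% to 1.63%).

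Positions of motif copies were counted around the start site of the strongest member of each of the 7026 genes, whether or not the copy lay inside a peak. There the 50-bp bin with most copies within 500 bp was the one just upstream of the start site for NRF1, SP/KLF, ETS, CRE and BANP. For NF-Y and ZNF143 it was 50 to 100 bp upstream. For YY1 it was the first 50 bp downstream, with 171 of 503 copies, and of the 250 copies in the first 100 bp downstream 86.0% read AAGATGGCG on the sense strand, whereas the Ip6k1 copy printed above reads on the other. For AP-1, RUNX, TCF/LEF and TATAAA the fullest bin was 350 to 500 bp upstream, and 11.5% to 16.1% of their copies lay in the core, against 70.9% for CRE and 65.6% for NRF1.

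Footprints lay on most copies of some motifs. Motif copies were counted here over whole peaks, not only in their central 200 bp. Of the 611 and 615 NRF1 copies in members, 97.7% and 97.6% overlapped a footprint, against 34.3% and 35.3% of all windows of that length in the same peaks. A site GCGCATGCGC holds the NRF1 motif on both strands and counts as 2 overlapping copies. At Snrnp70, 3 copies thus lie in 2 runs of capitals, and NRF1 copies outnumber separate sites. For the CRE the shares were 95.1% and 95.9%, and for SP/KLF 83.1% and 83.8%. ETS copies had 67.2% and 71.4%, BANP copies 65.4% and 69.1%, ZNF143 copies 65.1% and 73.5% of 43 and 49, CTCF copies 63.9% and 64.6%, and YY1 copies 56.2% and 60.1%. Where the footprint had to cover the whole motif, the shares were 93.6% and 90.7% for NRF1, 84.9% and 85.8% for the CRE, 64.9% and 66.6% for SP/KLF, 31.6% and 38.6% for ETS, 22.4% and 20.3% for YY1 and 18.6% and 30.6% for ZNF143, against 11.9% to 13.6% of all windows of 8 or 9 bases. The E-box CAGCTG had 23.6% and 23.1%, RUNX 23.6% and 23.0%, and AP-1 14.6% and 16.4%, each below the share of all windows of its length. In CpG-poor peaks the overlapping shares were 97.0% of 101 and 94.8% of 97 for NRF1 and 82.6% and 84.8% for SP/KLF. They were lower than in members for the CRE, with 82.7% of 75 and 91.0% of 78, and for ETS, with 58.7% and 67.8%. They were higher than in members for CTCF, with 73.7% and 78.2%, and for ZNF143, with 85.7% of 28 in both libraries. The sequence preference of DNase I can shape footprints, and its part was not tested.

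**Figure D3:**
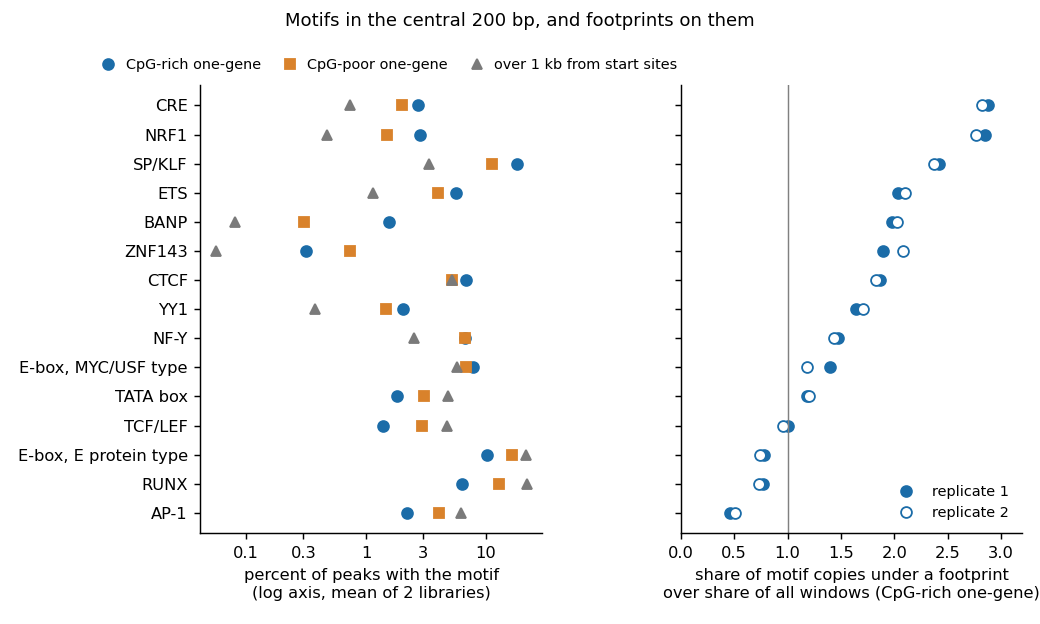
Left, percent of peaks whose central 200 bp hold each of 15 motifs (log axis, mean of 2 libraries) for CpG-rich one-gene, CpG-poor one-gene and distant peaks. Right, share of motif copies anywhere in CpG-rich one-gene peaks that overlap a footprint, divided by the share of all windows of the same length, in replicates 1 and 2. CRE, NRF1 and SP/KLF copies lie at 2.37 to 2.88 times the share of all windows, and AP-1 copies at 0.461 and 0.502 times.

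Members with some motifs were stronger than members without them, and part of this went with position. For 11 of the 15 motifs the median was higher with the motif in both libraries, although for TATAAA it was lower when either library was used alone without the overlap. For CAGCTG, AP-1, RUNX and TCF/LEF it was lower in both, at 0.885 and 0.840, 0.756 and 0.768, 0.883 and 0.949, and 0.814 and 0.907 times that of members without the motif. Within the core these ratios were 0.931 and 0.941, 0.860 and 1.008, 0.998 and 1.005, and 1.071 and 1.003. Members with an NF-Y motif had a median signal of 8.43 in replicate 1 and 8.66 in replicate 2, against 3.53 and 2.93 for members without one. Within the core the medians were 8.72 and 8.89, against 6.22 and 5.31. The BANP palindrome went with medians of 9.52 and 8.52 in the core, 1.49 and 1.53 times those of core members without it, and the NRF1 motif with 8.84 and 7.21, against 6.36 and 5.53. For SP/KLF the core medians were 6.75 and 5.42 with the motif, against 6.38 and 5.69 without it, so the 2 libraries differed in direction. For ETS, YY1 and CACGTG the core ratios were 1.05 to 1.07, and for CTCF 0.987 and 0.913, below those without the motif. For the CRE they were 1.21 and 1.13, for ZNF143 1.10 and 1.37, and for TATAAA 1.07 and 1.09. Members were also counted by how many they held of the 9 motifs NRF1, SP/KLF, ETS, CRE, YY1, NF-Y, ZNF143, BANP and CACGTG, a set chosen after the shares were seen. The 7090 and 7190 members with 0 of them, 60.8% and 61.5%, had medians of 2.51 and 2.17. Those with 1, 2 and 3 had medians of 5.68, 7.60 and 9.24 in replicate 1, and of 5.01, 6.61 and 7.76 in replicate 2, with 99 and 95 members holding 3. CpG-poor peaks with 0 of the motifs had medians of 2.11 and 1.97, and those with 1 had 3.51 and 3.17. These medians by number of motifs were taken over all zones, and the part of position in them was not tested.

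Most CpG-rich promoters of 1 gene were open. Of 8569 genes with a CpG-rich start site that had no other gene's start site within 1 kb, 6960 had a member in both libraries (81.2%, exact 95% interval 80.4% to 82.0%). Of 10107 genes whose lone start sites were all CpG-poor, 2114 had a shared CpG-poor peak in both libraries (20.9%, 20.1% to 21.7%), a share that was 35.6% with the thresholds of 0.75 and 55%. Intervals here cover counting error only. By observed/expected CpG, main-list peaks in both libraries were found within 1 kb of 2.81% of 1138 genes below 0.1, 61.0% of 1404 genes from 0.5 to 0.6, 74.3% of 2080 genes from 0.6 to 0.7 and 90.7% of 441 genes at 1 or more. The share thus climbed through the threshold without a step. Within 1 kb of their start sites the genes with a member had a median of 1236.5 and 1225 bp in base runs with a q-value below 0.05, against 765.5 and 783 bp for open CpG-poor genes.

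**Figure D4:**
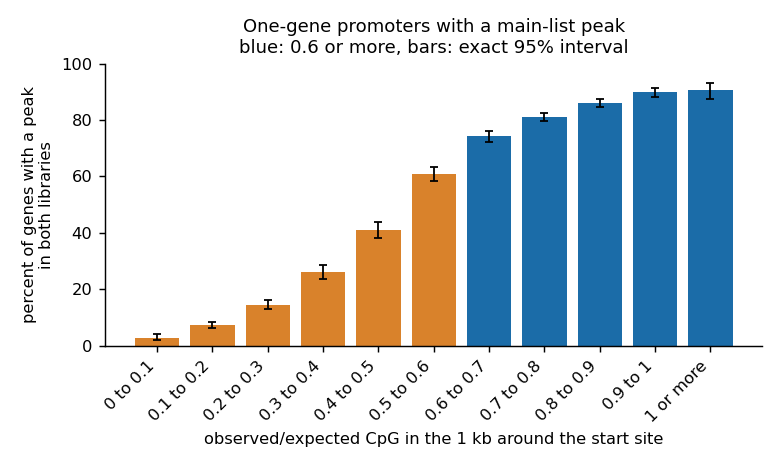
Percent of one-gene promoters with a main-list peak in both libraries by observed/expected CpG in the 1 kb around the start site, blue at 0.6 or more and orange below, with exact 95% intervals. The share is 2.81% below 0.1, 61.0% from 0.5 to 0.6, 74.3% from 0.6 to 0.7 and 90.7% at 1 or more.

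CpG-rich promoters without a peak numbered 1195 of 8569 (13.9%, exact 95% interval 13.2% to 14.7%), counted where neither library had a main-list peak within 1 kb. Of these, 42.7% had a peak in the longer list of at least 1 library, and 50.4% had no base run with a q-value below 0.05 in either library. Windows at the start sites held 68.7% GC for genes with a member and 68.8% for those without a peak. Start sites of genes with a member held the ETS motif at 7.51%, against 0.835% for genes without a peak, the YY1 motif at 3.88%, against 0.334%, and the NRF1 motif at 3.19%, against 1.34%. The SP/KLF motif was at 22.9%, against 16.8%, and the RUNX motif at 5.39%, against 4.57%. These are shares of 12422 start sites of genes with a member and 1796 of genes without a peak, several of which can belong to 1 gene.

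The CpG-rich one-gene promoters in gene lists of basic cell functions were open almost throughout, read against 81.2% of all such promoters. All CpG-rich promoters had a member in both libraries among the translation initiation factors (38 of 38), mitochondrial ribosomal proteins (35 of 35), RNA polymerase and Mediator subunits (33 of 33), proteasome subunits (26 of 26), DNA replication genes (26 of 26) and aminoacyl-tRNA synthetases (12 of 12). Cytosolic ribosomal proteins had 60 of 61, oxidative phosphorylation subunits 38 of 39 and spliceosome factors 31 of 32. The exception among the ribosomal proteins was Rpl10l, a copy of Rpl10 that is used in the testis, which had no main-list peak. By the strongest member of each gene, the cytosolic ribosomal proteins had median signals of 8.79 in replicate 1 and 7.96 in replicate 2 and the DNA replication genes 8.89 and 7.65, against 6.35 and 5.49 for all 7026 genes. The mitochondrial ribosomal proteins had 4.78 and 3.96. The CpG-poor promoters of these lists were open less evenly. Mitochondrial ribosomal proteins had 12 of 13, RNA polymerase and Mediator subunits 7 of 8, DNA replication genes 5 of 6 and aminoacyl-tRNA synthetases 4 of 5. Oxidative phosphorylation subunits had 10 of 19, proteasome subunits 3 of 5 and cytosolic ribosomal proteins 3 of 6. Translation initiation factors had 2 of 5 and spliceosome factors 1 of 3.

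Among the strongest in these lists, Rplp0, a protein of the ribosomal stalk, had 18.0 in replicate 1 and 17.4 in replicate 2, and Mrpl17, of the mitochondrial large subunit, had 19.9 and 20.2. Uqcrq, a subunit of respiratory complex III, had 19.2 and 19.5, while Atp5g1, of the ATP synthase ring, had 15.3 and 23.7, a wider gap. Psmd4, the ubiquitin receptor of the proteasome, had 12.5 and 15.9. Pold1, the catalytic subunit of DNA polymerase delta, had 23.8 and 19.0, Gins2, of the replicative helicase, had 17.6 and 21.1, and Mcm5, a helicase subunit, had 14.7 and 14.6. Srsf3, a splicing factor, had 15.6 and 16.2, and Polr2d, a subunit of RNA polymerase II, had 20.1 and 16.7. The zinc finger genes of the Zfp family had 166 of 186 CpG-rich promoters open (89.2%), with 114 of 177 CpG-poor ones. Zfp143, the mouse gene of ZNF143, had 18.5 and 24.2, and Zfp105, Zfp296 and Zfp334 had no main-list peak, though both longer lists held one at each.

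Genes of T cells were split by promoter class. Of 37 thymocyte transcription factor genes 31 had CpG-rich promoters of 1 gene, and 30 of these had a member in both libraries, with median signals of 5.44 and 4.65. The highest were at Cbfb, the partner of RUNX proteins, with 13.4 in replicate 1 and 16.5 in replicate 2, at Nfatc3, a factor of calcium signalling, with 11.0 and 14.8, and at Egr1, an early response gene, with 12.5 and 13.1. Of 36 T cell surface and signalling genes only 6 had CpG-rich one-gene promoters, all with a member, against 8569 of all 20720 autosomal genes. Another 28 were CpG-poor, 23 of them with a shared peak, against 20.9% of all CpG-poor one-gene promoters. The 6 included Fyn, a kinase of T cell receptor signalling, with 11.8 and 13.8, Rasgrp1, an activator of RAS, with 8.97 and 7.71, and Stk17b, a kinase gene, with a mean of 5.63 ± 0.890.

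Developmental genes had CpG-rich promoters but few members. Of 132 regulators of development, mainly homeobox and T-box genes with some PAX, SOX and forkhead genes, 98 had a CpG-rich one-gene promoter, and 16 of these had a member in both libraries (16.3%, exact 95% interval 9.63% to 25.2%), while 72 had no main-list peak. With the longer lists the share was 33.7%, against 86.1% for all CpG-rich one-gene promoters. The median signals of the 16 were 1.61 and 1.49. The homeobox gene Six5 had 9.39 and 8.41, Foxd2, a forkhead gene, had 5.80 and 4.90, and Barhl1, a gene of the nervous system, had 4.12 and 2.71. Dlx3 and Dlx5 had no peak in either list, and Barhl2 had one in 1 longer list only. Of 28 genes of Wnt, Bmp, Fgf and hedgehog ligands with CpG-rich promoters 7 were open (25%, 10.7% to 44.9%), with Bmp7 at 3.63 and 3.11, Bmp1, a protease gene named with them, at 1.66 and 1.11 and Wnt11 at 1.61 and 0.809.

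**Figure D5:**
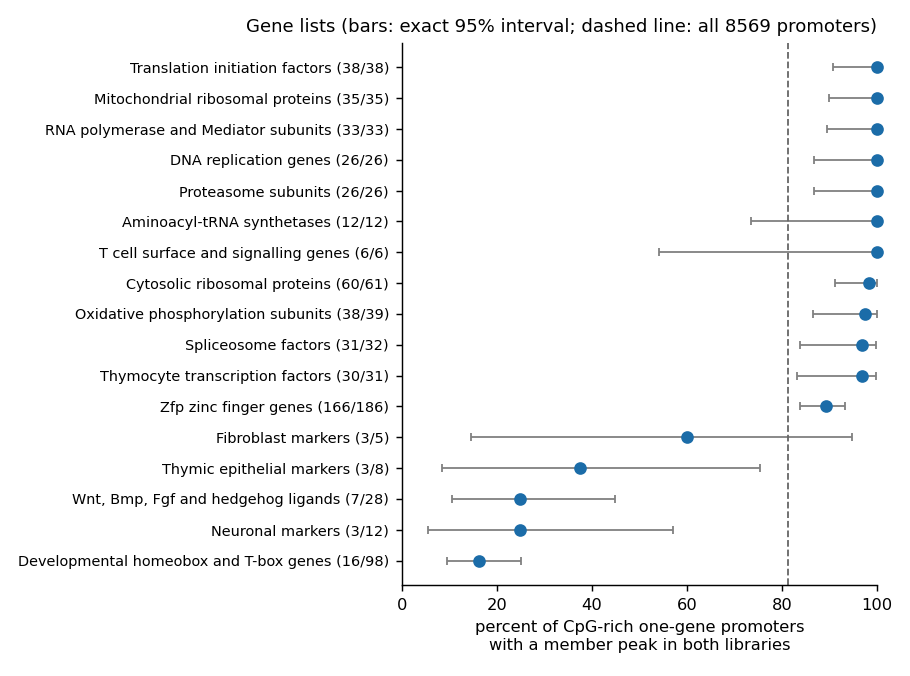
Percent of CpG-rich one-gene promoters with a member peak in both libraries for the 17 gene lists with at least 5 such promoters, with exact 95% intervals and the number open over the number of promoters in brackets; the dashed line marks 81.2%, the share of all 8569 promoters. Lists of basic cell functions lie at 96.9% or more, the Zfp genes at 89.2%, and developmental and neuronal lists at 25% or less.

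Markers of other cell types were mostly CpG-poor genes, so members say little of them, except for the neuronal markers, of which 12 of 19 were CpG-rich. Neuronal markers had 3 of 12 CpG-rich promoters open, or 41.7% with replicate 1 alone and with the longer lists, with Grin1, a glutamate receptor gene, the highest at 1.18 and 0.835, and thymic epithelial markers had 3 of 8, with Prss16, a thymus protease gene, at 2.88 and 2.03 and Epcam, an adhesion gene, at 1.64 and 1.14. Fibroblast markers had 3 of 5, with Vim at 2.78 and 2.09, and myeloid and dendritic markers 2 of 4, or 100% with replicate 1 alone and 75% with the longer lists, with Irf8, also used in B cells, at 5.57 and 4.60. Endothelial markers had 2 of 4, adipocyte markers 1 of 2, or 100% with either library alone and with the longer lists, and erythroid markers 1 of 2, namely Tfrc, the transferrin receptor gene of dividing cells, with 14.0 and 16.2. None of the B cell and hepatocyte markers had a CpG-rich one-gene promoter, and Des, the only such skeletal muscle gene, had no main-list peak. In bulk tissue fewer cells of a type and less accessible promoters in each cell cannot be told apart.

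Some members overlapped another peak of the same list, and more often than autosomal peaks as a whole. In replicate 1, 821 members (7.04%) overlapped another peak of the same list, against 2.95% of all autosomal peaks, and in replicate 2 it was 929 (7.95%), against 4.03%. On chromosome 1 none of the 3133 and 2987 peaks did. Without such peaks the ratio of members to CpG-poor peaks was 1.58.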

How the data were processed

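DNase-seq was run on 2 thymus libraries, and the files were made per library on mm10 per the file notes. No aligner, caller or depth is given in the sources used here. Peak signal, as the authors deposited it, has no stated scale. The base runs carry a q-value (a false discovery rate) per the file notes, and the deposited footprint score was 0.01 in every row, so only footprint positions were used. Coordinates are counted from 1 on GRCm38, where no peak ran past its chromosome. Start sites were those of protein-coding transcripts in the GENCODE vM21 basic annotation (39540 sites of 20720 genes on autosomes), and the nearest one gave the CpG class. Peaks were shared if they overlapped by 1 bp. Classes, offsets, overlap and motif search were tested on simulated data. Python 3.11.15, numpy 2.4.6, scipy 1.17.1, pysam 0.24.0, samtools 1.23.1 and matplotlib 3.10.9 were used. Intervals are exact (Clopper-Pearson) at 95%.

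Members, the 24 gene lists and the 15 motifs were chosen with earlier results of these data known. Named by rule were the 10 strongest and 5 weakest paired members, the 5 widest, the 5 with most footprints, the 5 with the largest library difference each way, the 3 nearest each threshold on either side, per list the 3 strongest and up to 3 without a peak, and per motif the strongest member whose motif had a footprint. Of 9 sequences so named, 7 are printed, and 1 of the 5 widest members is not reported here. Alternatives tried were other distances, CpG thresholds, windows and overlaps, footprints covering the whole motif, the longer lists, the stronger 50% of peaks and each library alone.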

Additional observations from a re-analysis of the deposited data

How the results depend on the processing

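The number of members was 11675.5 on average over the libraries, and 7479 with thresholds of 0.75 and 55% GC for the CpG class; other settings kept it within 1.5 times. The signal ratio of members to CpG-poor peaks, 1.48, was 1.71 with centres within 500 bp, 1.08 with the thresholds of 0.75 and 55%, 1.69 with CpG counted in 500 bp and 1.62 in the longer lists, so members stayed the stronger class under each. The open share of CpG-rich promoters, 81.2%, was 80.2%, 83.0%, 80.1% and 86.1% under those 4 settings, 77.4% with 50% reciprocal overlap, 71.6% with the stronger 50% of peaks and 78.6% without peaks that overlap another peak of their list, an alternative added after seeing the data. The CpG-poor share, 20.9%, was 19.7%, 35.6%, 16.2% and 25.2% under the same 4, 19.6% with reciprocal overlap and 15.1% with the stronger peaks. The share of member bases under footprints, 23.7%, was 26.8% with centres within 500 bp, 22.8% with the stricter thresholds, 25.2% with reciprocal overlap, 20.8% in the longer lists, 29.8% with the stronger peaks and 25.1% without self-overlapping peaks. The median centre, at -13.5 bp, moved to -22.5, -14.5, -19, -11, -26.5 and -16.5 bp under these 6. With 1 library alone and no overlap required, the members numbered 13019 to 13273, the ratio was 1.45 to 1.47, the open share 82.7% to 83.8%, the CpG-poor share 22.6%, the footprint share 22.1% to 22.9%, the centre -10 to -9 bp and the width 240 to 260 bp. Members with TATAAA had 1.22 times the signal of those without it, but 0.814 to 0.859 times in 1 library alone; the cause was not tested. Of 66 alternative values for gene list shares, 60 stayed within the interval of the list; the other 6 were 33.7% for developmental genes with the longer lists and 100% for 1 spliceosome, 1 myeloid and 3 adipocyte values. With footprints that cover the whole motif, 14 of 15 ratios to all windows moved, NRF1 to 7.62 and AP-1 to 0.102. No paired analysis was possible because the series holds 1 group. Depth is unknown, and 2 libraries that may share an animal limit every spread given here.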
